A study of Mus musculus with 16 samples.

Results

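The 10 genes described here, Gfap, Vim, Cd44, Aqp4, Gja1, Slc1a2, Slc1a3, Aldh1l1, S100b and Sox9, are genes commonly used to mark astrocytes, taken by symbol from a fixed list out of 55335 genes in the count tables. All 10 were found and all 10 passed the filter on low counts, as did 19764 genes of the whole table. RNA was sequenced from oligodendrocyte precursor cells (OPCs) grown from mouse neural stem cells. The labels give 4 groups of 4 libraries: RXRgKO cells (RXRg-/-) given the thyroid hormone T3 for 24 h, RXRgKO cells left untreated, WT cells (RXRg+/+) given T3 for 24 h, and WT cells left untreated. All groups share the C57BL6J/129svEmx mixed background and were taken on day 4 of monolayer culture. T3 is the active thyroid hormone, and RXRg is the retinoid X receptor gamma, 1 of the nuclear receptors that pair with thyroid hormone receptors on DNA. Whether the libraries of 1 group stem from different cultures is not stated, and every p-value here is set against the spread between libraries, which may be technical.

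Astrocytes are the glia that take up glutamate, carry water and potassium, couple to each other through gap junctions and respond to injury. In injury or under cytokines of the interleukin 6 family they raise the intermediate filament proteins GFAP and vimentin, a state called reactive. Precursors of the oligodendrocyte lineage can also turn into astrocytes in culture, where signals through gp130 and STAT3 or through bone morphogenetic proteins favour that fate. Several of the 10 genes are not confined to astrocytes: Vim and Slc1a3 are also used by radial glia, Sox9 by neural progenitors, S100b by cells of the oligodendrocyte lineage, and Cd44 and Vim by mesenchymal and immune cells. These are bulk cultures, in which more cells of a type and more RNA per cell cannot be told apart.

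The libraries held 18262279 to 42588442 counts in genes. Rxrg, the targeted gene, went against the labels: it was at 4.27 to 5.46 CPM (counts per 1e6 counts, normalised for library composition) in T3-treated and 3.78 to 4.83 CPM in untreated RXRgKO-labelled libraries, against 0.371 to 0.960 CPM in T3-treated and 1.14 to 1.79 CPM in untreated WT-labelled libraries. Gene counts do not show which exons the reads cover, and the deleted stretch of Rxrg is not described, so the genotypes below are called by their labels. The libraries of a group also fell into sets that agreed closely within themselves, with a chi-square per gene of 1.50 to 2.12 within a set and 4.94 to 9.62 between sets. In the WT-labelled groups replicate 1 stood alone and replicates 2 to 4 formed the other set. In the RXRgKO-labelled groups the first set held T3-treated replicates 1 and 2 with untreated replicates 1 and 3, and the second set held T3-treated replicates 3 and 4 with untreated replicates 2 and 4. The sets were matched across treatments by the correlation of their deviations over all genes (r = 0.790 for the RXRgKO-labelled and 0.648 for the WT-labelled sets), which does not show that they came from the same cultures. Xist, the RNA that coats a silenced X chromosome, stood at 276 to 365 CPM in T3-treated and 1198 to 1382 CPM in untreated WT-labelled replicates 2 to 4. It was at 401 CPM with T3 and 526 CPM untreated in WT-labelled replicate 1, and at 1.39 to 3.75 CPM in the first and 543 to 723 CPM in the second RXRgKO-labelled set. Ddx3y, a gene of the Y chromosome, was at 124 to 126 CPM with T3 and 115 to 118 CPM untreated in the first RXRgKO-labelled set, and at 20.7 to 22.1 CPM with T3 and 51.2 to 52.9 CPM untreated in the second. In WT-labelled replicates 2 to 4 it was at 68.1 to 78.3 CPM with T3 and 13.9 to 15.8 CPM untreated, so that set differed in both genes between treatments. The second RXRgKO-labelled set differed in Ddx3y between treatments, while the first was close in it. The part of these differences in the results below was not tested.

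All 10 genes were measured well above the level of a few reads. Per kilobase of exon, Gfap ranked 23rd, Vim 61st, Aqp4 287th, Slc1a3 319th, S100b 364th, Aldh1l1 695th, Gja1 1196th, Sox9 2941st, Slc1a2 3577th and Cd44 8122nd by mean level among 19749 genes with an annotated length. These ranks use the mean of all 16 libraries, over which Gfap ran from 123.6 to 2656.9 CPM per kb. By group mean Gfap led in each of the 4 groups and Cd44 came last in each. In untreated WT-labelled libraries Gfap averaged 437.6 ± 456.0 CPM per kb (SD, n = 4) and Vim 174.4 ± 6.13 CPM per kb, and their ranges did not overlap. S100b, Slc1a3 and Aqp4 followed at 112.3, 99.4 and 95.3 CPM per kb with overlapping ranges. Aldh1l1 and Gja1 overlapped at 45.3 and 41.5 CPM per kb, as did Sox9 and Slc1a2 at 19.2 and 16.9 CPM per kb. Cd44 stood below them at 2.34 ± 0.828 CPM per kb. In both RXRgKO-labelled groups the ranges of Gfap and Vim overlapped.

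**Figure D1:**
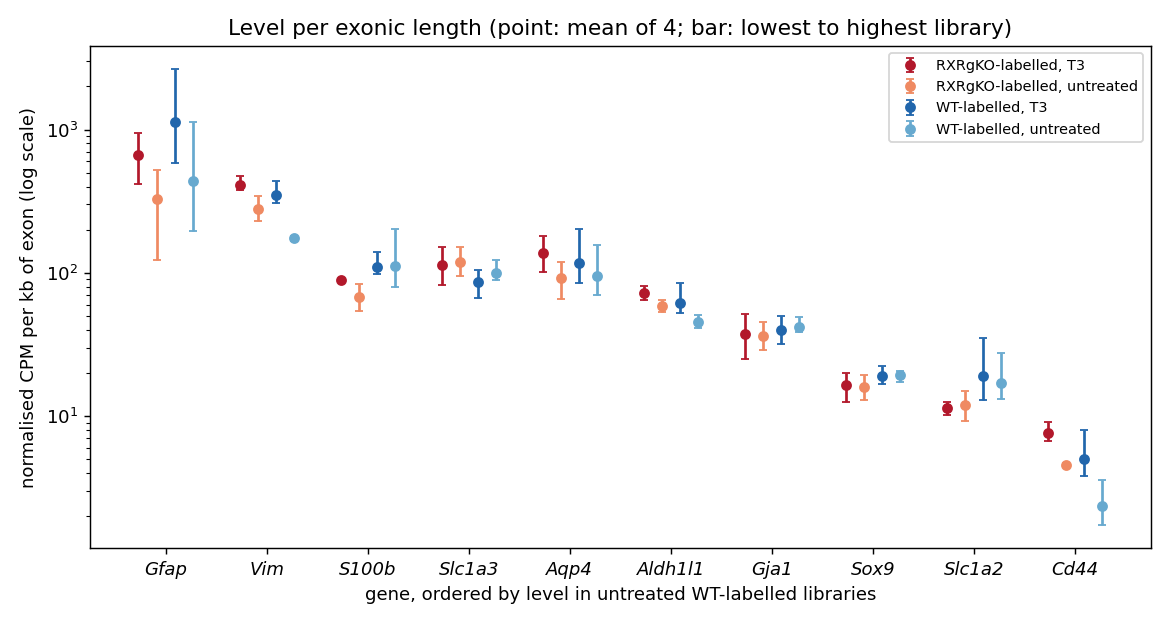
Level of each gene per exonic length, as normalised CPM per kb on a log scale; points are means of 4 libraries and bars run from the lowest to the highest library. Gfap has the highest mean and Cd44 the lowest in every group.

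Vim and Cd44 were higher with T3 in the WT-labelled cultures. With all 16 libraries in 1 fit and 1 mean per group, edgeR's quasi-likelihood test with Benjamini-Hochberg adjustment called 2 of the 10 genes higher and none lower with T3 under the WT label at an adjusted p under 0.05, Vim and Cd44. Of all tested genes 4.96% were called higher and 3.48% lower in that comparison. Under the RXRgKO label the same test called none of the 10, where the background was 2.01% higher and 0.794% lower. There 2 of the 10, Cd44 and Vim, had an unadjusted p under 0.05, DESeq2 called both and limma voom called 1. The median log2 fold change of the 10 genes with T3 was 0.35 under the RXRgKO label and 0.24 under the WT label, against -0.002 and -0.03 over all tested genes. Of the 10 genes, 4 under the RXRgKO label and 3 under the WT label had T3-treated libraries that all lay above all untreated ones, against 13.4% and 15.4% of all genes whose groups did not overlap in either direction.

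Vim (ENSMUSG00000026728; GRCm38 chromosome 2, 13573927 to 13582826, plus strand) encodes vimentin, an intermediate filament protein of immature and reactive astrocytes. In RXRgKO-labelled libraries it was at 2239, 1940, 1784 and 1831 CPM in T3-treated replicates 1 to 4, against 1355, 1215, 1634 and 1083 CPM in untreated replicates 1 to 4. WT-labelled libraries held it at 2067, 1447, 1524 and 1592 CPM with T3, against 854, 793, 813 and 849 CPM untreated. Every T3-treated library lay above every untreated one under both labels. The log2 fold change with T3 was 1.00 (SE 0.16, edgeR adjusted p = 0.000573) under the WT label. Under the RXRgKO label it was 0.56 (SE 0.16, edgeR adjusted p = 0.0657), and the call there was made once WT-labelled T3 replicate 1 (edgeR adjusted p = 0.0240) or untreated RXRgKO-labelled replicate 3 (edgeR adjusted p = 0.0404) was left out.

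Cd44 (ENSMUSG00000005087; GRCm38 chromosome 2, 102811141 to 102901665, minus strand) encodes the hyaluronan receptor CD44, found on astrocyte precursors and reactive astrocytes. It was at 61.1, 51.8, 45.3 and 46.4 CPM in T3-treated RXRgKO-labelled replicates 1 to 4, against 30.0, 30.5, 31.7 and 30.4 CPM in the untreated ones. The WT-labelled libraries were at 54.0, 25.9, 27.2 and 28.6 CPM with T3, against 24.1, 11.7, 14.1 and 13.5 CPM untreated. The groups did not overlap under either label, and WT-labelled replicate 1 was highest in both of its groups. With T3 the log2 fold change was 1.10 (SE 0.24, edgeR adjusted p = 0.00783) under the WT label and 0.74 (SE 0.24, edgeR adjusted p = 0.115) under the RXRgKO label. Without WT-labelled T3 replicate 1, which enters through the shared spread, the RXRgKO-labelled change gave an edgeR adjusted p of 0.0380.

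**Figure D2:**
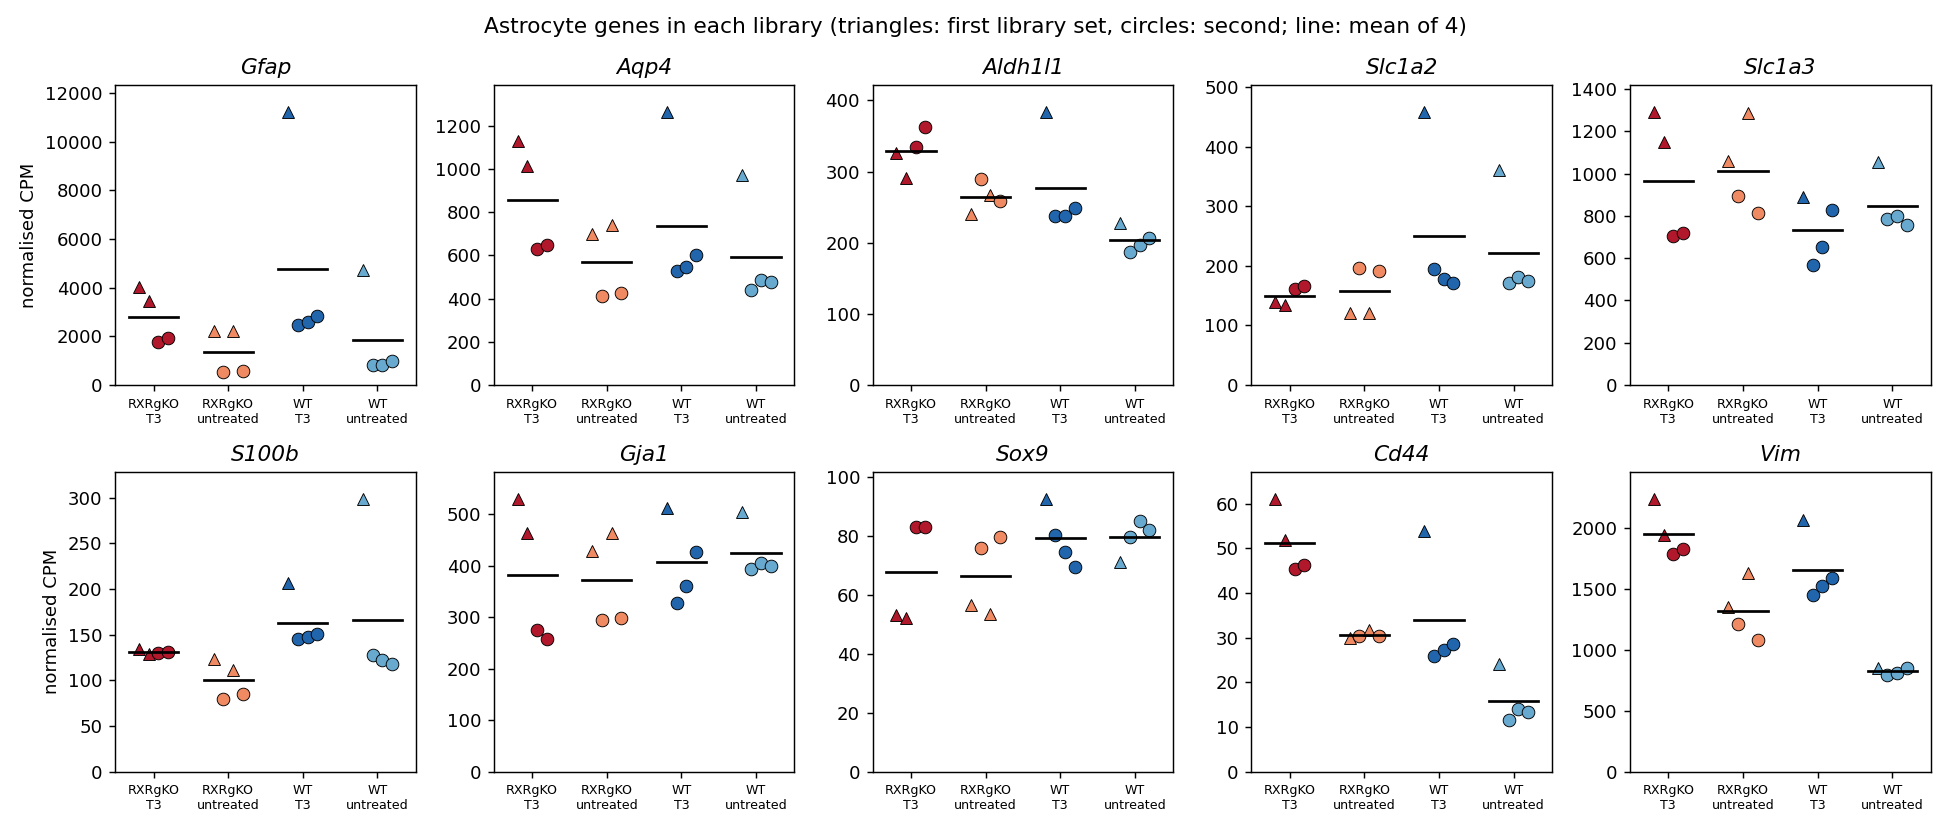
Normalised CPM of each of the 10 genes in each library, with a linear axis from 0; triangles are the first library set (WT replicate 1, or the first RXRgKO set), circles the second, and the line is the mean of 4. WT replicate 1 lies far above the other WT libraries for Gfap, Aqp4, Slc1a2 and S100b, and the RXRgKO libraries split by set for Gfap, Aqp4, Slc1a3, Gja1 and Sox9.

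Gfap, the gene most often used to mark astrocytes, had the largest T3 fold change of the 10 under the WT label, and its libraries were too far apart for a call. Gfap (ENSMUSG00000020932; GRCm38 chromosome 11, 102887336 to 102900912, minus strand) encodes the glial fibrillary acidic protein. It was at 4010, 3458, 1756 and 1944 CPM in T3-treated RXRgKO-labelled replicates 1 to 4, against 2216, 521, 2207 and 563 CPM in untreated ones. Under the WT label the level was at 11207, 2455, 2598 and 2834 CPM with T3, against 4728, 819, 835 and 1001 CPM untreated. WT-labelled replicate 1 held several times the Gfap of its group in both treatments, and its untreated library lay above T3-treated replicates 2 to 4. The log2 fold change with T3 was 1.37 (SE 0.68, edgeR adjusted p = 0.251) under the WT label and 1.02 (SE 0.67, edgeR adjusted p = 0.479) under the RXRgKO label. Without untreated WT-labelled replicate 1 the WT value was 2.45 and was called (edgeR adjusted p = 0.0200), and without T3-treated replicate 1 it was 0.48 (edgeR adjusted p = 0.692). Without replicate 1 in both treatments it was 1.57 and edgeR did not call it.

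The promoter stretches of Gfap and Cd44 are shown because both genes were higher with T3 in every library set compared below while they differ widely in level. RefSeq promoters on GRCm38.p6 were matched for 8 of the 10 genes, all but Aqp4 and Sox9, and the 250 bases before each RefSeq start were searched on both strands for AGGTCA, the core motif bound by thyroid hormone and retinoid X receptors, for its direct repeat with a spacer of 4 bases (DR4), and for TTCNNNGAA, the motif of STAT proteins. The direct repeat, when present, also holds AGGTCA. The sequences run 5′ to 3′ on the gene's strand, and capitals mark a motif match. The RefSeq starts used for Gfap, Aldh1l1, Slc1a2 and Vim lie inside the gene spans given here, which are GENCODE's.
Gfap, chr11:102897201-102897450, minus strand: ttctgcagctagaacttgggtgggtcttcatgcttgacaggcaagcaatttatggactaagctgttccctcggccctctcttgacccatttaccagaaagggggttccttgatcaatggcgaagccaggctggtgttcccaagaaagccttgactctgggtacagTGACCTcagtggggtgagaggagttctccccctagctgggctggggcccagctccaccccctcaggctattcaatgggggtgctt
Cd44, chr2:102901666-102901915, minus strand: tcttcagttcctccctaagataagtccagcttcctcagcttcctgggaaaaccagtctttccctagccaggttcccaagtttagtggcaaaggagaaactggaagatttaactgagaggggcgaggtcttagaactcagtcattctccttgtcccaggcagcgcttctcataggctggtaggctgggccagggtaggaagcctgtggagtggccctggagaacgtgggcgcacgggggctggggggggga
The Gfap stretch held AGGTCA on the opposite strand at positions -85 to -80, counted from -1 at the last base before the start, and the Cd44 stretch held none of the 3 motifs. Among the other matched genes Aldh1l1 held AGGTCA at -178 to -173 and Slc1a3 held TTCNNNGAA at -96 to -88. Of 32536 promoters of the same length 4567 (14%) held AGGTCA, 7.04% held TTCNNNGAA and 0.0154% held the direct repeat. A match describes letters in this window only.

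Because the library sets stood apart, the T3 change was also read within each set, in a fit with 1 mean per group and set that was added after the sets had been seen. Within sets, 5 of the 10 genes, Gfap, Vim, Cd44, Aqp4 and Aldh1l1, were called higher with T3 in the 3 sets that hold 2 or 3 libraries per treatment, and also in WT-labelled replicate 1. That replicate has 1 library per treatment, so its calls have no replicate of their own and assume that it varies like the libraries of the other sets. Gja1 and Slc1a3 were called in none, and the other 3 changed in only some sets or in both directions. In the other 3 sets the replicates differ little more than sampling noise, so the small standard errors do not describe separate cultures. In the first set of the RXRgKO label, 5 of the 10 were called higher and none lower (edgeR, background 11.4% higher and 6.93% lower), and 5 had an adjusted p above the limit. In its second set, 6 were called higher and 1 lower, against 24.2% and 14.5% of all genes. In WT-labelled replicate 1, with the spread taken from the other sets, 7 were called higher and 1 lower, against 9.33% and 6.85%, and in WT-labelled replicates 2 to 4, 6 were called higher and 1 lower, against 24.2% and 20.1%.

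Gfap rose in every set. Its log2 fold change with T3 was 0.76 (SE 0.09) in the first and 1.77 (SE 0.09) in the second RXRgKO-labelled set, 1.25 (SE 0.13) in WT-labelled replicate 1 and 1.57 (SE 0.07) in WT-labelled replicates 2 to 4. The larger values came from sets with a lower untreated level within each label. Vim rose by 0.48 (SE 0.08) and 0.65 (SE 0.08) in the RXRgKO-labelled sets, and by 1.28 (SE 0.12) in WT-labelled replicate 1 and 0.89 (SE 0.07) in replicates 2 to 4. Cd44 rose by 0.88 (SE 0.08) and 0.59 (SE 0.08) in the RXRgKO-labelled sets, and by 1.16 (SE 0.12) and 1.06 (SE 0.08) in the WT-labelled ones. When the counts were instead summed per library set, leaving 2 units a group, edgeR called none of the 10 in any of the 5 comparisons. That fit called few genes at all. Of 24773 tested, it called 3 for T3 under the RXRgKO label and 15 under the WT label. Between the labels it called 110 with T3 and 141 without T3, and for the difference in T3 response 0. Among the 10, unadjusted p fell under 0.05 for Cd44 and Vim with T3 under the WT label and for S100b between the labels without T3.

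**Figure D3:**
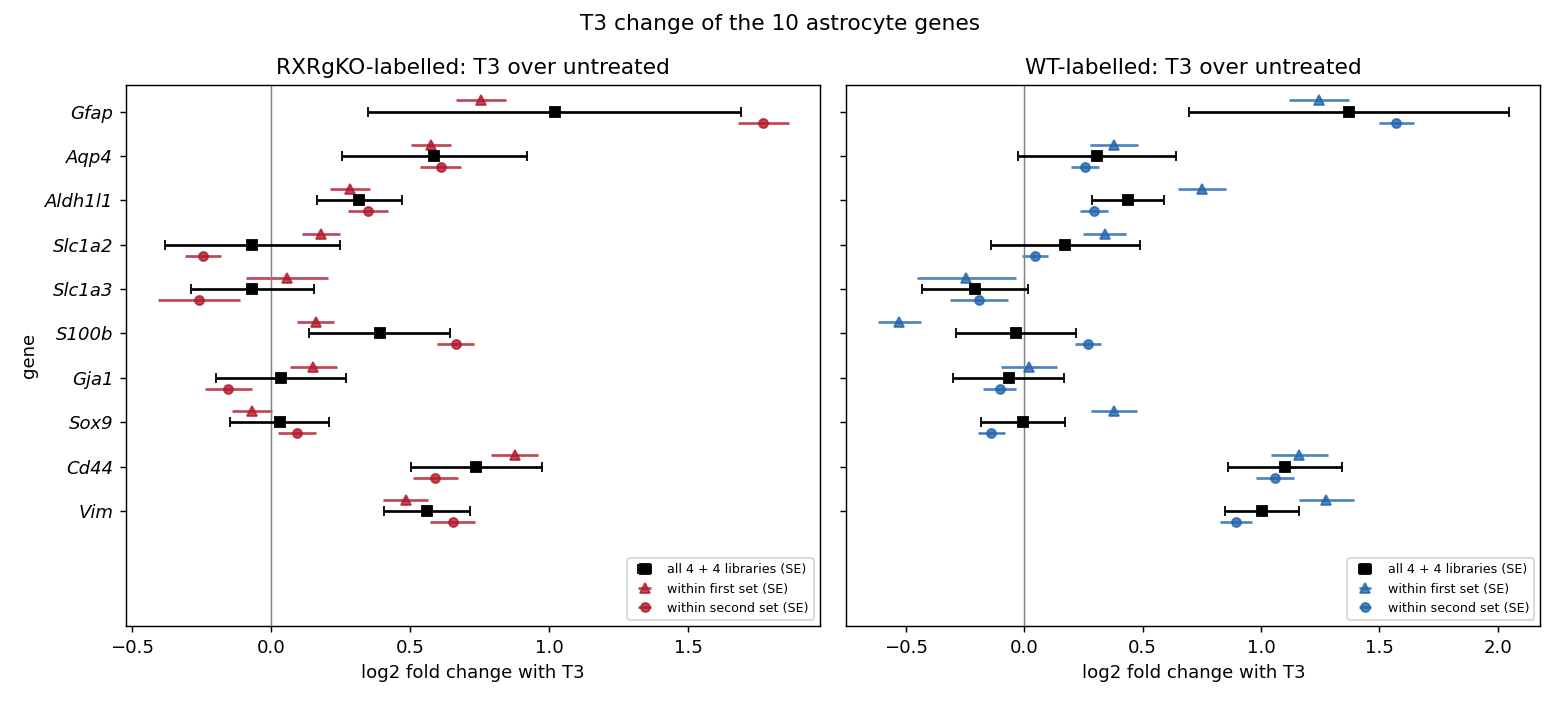
Log2 fold change with T3 (SE bars) of the 10 genes, at left for RXRgKO-labelled and at right for WT-labelled libraries; black squares use all 4 T3-treated and 4 untreated libraries, triangles and circles the first and second library set. Gfap, Aqp4, Aldh1l1, Cd44 and Vim lie right of 0 in all 4 sets, whereas S100b is at -0.53 in WT replicate 1 and at 0.27 in WT replicates 2 to 4.

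For T3 under the WT label a block on the replicate number was also fitted to the WT-labelled libraries alone. Replicate 1 alone had its best match in its own number (correlation of deviations 0.648, against 0.164 to 0.247 for replicates 2 to 4). The numbers therefore do not show that replicates 2 to 4 are paired. In that fit edgeR called 5 of the 10 higher, where 16.0% of all genes were called higher and 13.3% lower. The calls added were Gfap (log2 fold change 1.48, adjusted p = 4.93e-06), Aqp4 (0.28, adjusted p = 0.0275) and Aldh1l1 (0.40, adjusted p = 0.0103). Adding a term for the set to the fit of all 16 libraries, the members called by edgeR were 6 for T3 under the RXRgKO label, 5 for T3 under the WT label, 7 between the labels with T3, 9 between the labels without T3 and 3 for the difference in T3 response. The background rose with them, to 33.6%, 38.4%, 47.1%, 45.2% and 6.68% of all genes.

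Aqp4 (ENSMUSG00000024411) encodes aquaporin 4, the water channel of astrocyte endfeet. It was at 1129, 1014, 632 and 647 CPM in T3-treated RXRgKO-labelled replicates 1 to 4, against 699, 410, 741 and 428 CPM in untreated ones. The WT-labelled libraries were at 1263, 529, 545 and 603 CPM with T3, against 972, 439, 488 and 477 CPM untreated. As for Gfap, WT-labelled replicate 1 and the first RXRgKO-labelled set were high in both treatments, and the groups overlapped. With T3 the log2 fold change was 0.59 (SE 0.33, edgeR adjusted p = 0.406) under the RXRgKO label and 0.31 (SE 0.33, edgeR adjusted p = 0.641) under the WT label. Within sets it was 0.57 and 0.61 under the RXRgKO label, and 0.38 and 0.26 under the WT label.

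Aldh1l1 (ENSMUSG00000030088; GRCm38 chromosome 6, 90486427 to 90600203, plus strand) encodes a folate enzyme used as a pan-astrocyte marker. It was at 326, 291, 335 and 363 CPM in T3-treated RXRgKO-labelled replicates 1 to 4, against 241, 290, 267 and 258 CPM in untreated ones. Under the WT label the level was at 384, 238, 238 and 249 CPM with T3, against 228, 187, 196 and 207 CPM untreated. The groups did not overlap under either label. The log2 fold change with T3 was 0.32 (SE 0.15, edgeR adjusted p = 0.327) under the RXRgKO label and 0.44 (SE 0.15, edgeR adjusted p = 0.0940) under the WT label. DESeq2 called the WT-labelled change (adjusted p = 0.0171).

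For the glutamate transporters and the gap junction gene, edgeR called no T3 change under either label with 1 mean per group. Slc1a3 (ENSMUSG00000005360; GRCm38 chromosome 15, 8634124 to 8710764, minus strand) encodes GLAST, the glutamate transporter of radial glia and astrocytes. It was at 1291, 1152, 707 and 717 CPM in T3-treated RXRgKO-labelled replicates 1 to 4, against 1059, 892, 1286 and 814 CPM in untreated ones. The WT-labelled libraries were at 890, 568, 655 and 828 CPM with T3, against 1055, 785, 801 and 755 CPM untreated. The groups overlapped under both labels, with log2 fold changes of -0.07 (SE 0.22, edgeR adjusted p = 0.910) under the RXRgKO label and -0.21 (SE 0.22, edgeR adjusted p = 0.637) under the WT label.

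Slc1a2 (ENSMUSG00000005089; GRCm38 chromosome 2, 102658659 to 102790784, plus strand) encodes GLT-1, the main glutamate transporter of mature astrocytes. It was at 139, 134, 161 and 165 CPM in T3-treated RXRgKO-labelled replicates 1 to 4, against 120, 196, 121 and 191 CPM in untreated ones. Under the WT label the level was at 458, 195, 178 and 171 CPM with T3, against 361, 172, 181 and 174 CPM untreated. WT-labelled replicate 1 was high in both treatments, while the first RXRgKO-labelled set, high for Gfap, was low for Slc1a2. With T3 the log2 fold change was -0.07 (SE 0.31, edgeR adjusted p = 0.936) under the RXRgKO label and 0.17 (SE 0.31, edgeR adjusted p = 0.797) under the WT label. Within sets it fell by 0.25 (SE 0.06) in the second RXRgKO-labelled set and rose by 0.34 (SE 0.09) in WT-labelled replicate 1.

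Gja1 (ENSMUSG00000050953; GRCm38 chromosome 10, 56377330 to 56402513, plus strand) encodes connexin 43, the main gap junction protein of astrocytes. It was at 530, 463, 276 and 257 CPM in T3-treated RXRgKO-labelled replicates 1 to 4, against 429, 295, 464 and 298 CPM in untreated ones. The WT-labelled libraries were at 512, 327, 360 and 426 CPM with T3, against 504, 394, 405 and 399 CPM untreated. It split by library set and not by treatment, with log2 fold changes of 0.04 (SE 0.23, edgeR adjusted p = 0.950) under the RXRgKO label and -0.07 (SE 0.23, edgeR adjusted p = 0.909) under the WT label.

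S100b (ENSMUSG00000033208; GRCm38 chromosome 10, 76253853 to 76261159, plus strand) encodes a calcium-binding protein of astrocytes and of oligodendrocyte lineage cells. It was at 135, 129, 130 and 131 CPM in T3-treated RXRgKO-labelled replicates 1 to 4, against 124, 80.0, 112 and 85.0 CPM in untreated ones. Under the WT label the level was at 207, 145, 148 and 151 CPM with T3, against 299, 128, 122 and 118 CPM untreated. The groups did not overlap under the RXRgKO label, where the log2 fold change was 0.39 (SE 0.26, edgeR adjusted p = 0.475). Under the WT label it was -0.03 (SE 0.25, edgeR adjusted p = 0.959), with replicate 1 falling by 0.53 (SE 0.09) and replicates 2 to 4 at 0.27 (SE 0.05). It rose by 0.66 (SE 0.07) in the second RXRgKO-labelled set.

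Sox9 (ENSMUSG00000000567; GRCm38 chromosome 11, 112782224 to 112787760, plus strand) encodes a transcription factor of neural progenitors that stays on in astrocytes. It was at 53.0, 52.1, 82.9 and 83.1 CPM in T3-treated RXRgKO-labelled replicates 1 to 4, against 56.4, 76.0, 53.6 and 79.5 CPM in untreated ones. The WT-labelled libraries were at 92.4, 80.2, 74.3 and 69.3 CPM with T3, against 71.1, 79.6, 85.1 and 81.9 CPM untreated. The first RXRgKO-labelled set was low for Sox9 in both treatments. The log2 fold change with T3 was 0.03 (SE 0.18, edgeR adjusted p = 0.947) under the RXRgKO label and -0.01 (SE 0.18, edgeR adjusted p = 0.990) under the WT label, and its sign under either label changed with the setting.

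Between the genotype labels, Vim and Cd44 were the genes called without T3. There edgeR called 2 of the 10 genes higher under the RXRgKO label and none lower, against 6.17% and 5.16% of all tested genes. Untreated Vim averaged 1322 ± 236 CPM in RXRgKO-labelled and 827 ± 29.1 CPM in WT-labelled libraries (SD, n = 4 each), a log2 fold change of 0.68 (SE 0.16, edgeR adjusted p = 0.00758). Untreated Cd44 averaged 30.7 ± 0.710 CPM in RXRgKO-labelled and 15.8 ± 5.61 CPM in WT-labelled libraries (SD, n = 4 each), a log2 fold change of 0.95 (SE 0.24, edgeR adjusted p = 0.0136). Neither gene's groups overlapped, and 3 of the 10 genes had groups that did not, against 18.7% of all genes. S100b, lower under the RXRgKO label by 0.74 on the log2 scale (SE 0.26, edgeR adjusted p = 0.0797), was called by DESeq2 (adjusted p = 0.0348) and by edgeR with a replicate block (adjusted p = 0.0456), and its value was -0.29 (SE 0.16, edgeR adjusted p = 0.329) without untreated WT-labelled replicate 1. The third gene whose groups did not overlap was Aldh1l1, with a log2 fold change of 0.37 (SE 0.15, edgeR adjusted p = 0.158). The Cd44 call was lost when untreated WT-labelled replicate 2 (edgeR adjusted p = 0.0612), 3 (edgeR adjusted p = 0.0618) or 4 (edgeR adjusted p = 0.0577) was left out, and both calls were lost without the first RXRgKO-labelled set (edgeR adjusted p = 0.0560 for Cd44 and 0.0515 for Vim). The log2 fold change of Cd44 was 0.82 to 0.89 without 1 of those WT-labelled replicates and 0.94 without that set, and that of Vim was 0.47 without the set.

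With T3, none of the 10 was called between the labels by edgeR, against 8.1% of all genes called higher and 6.8% called lower under the RXRgKO label. Unadjusted p was under 0.05 for 2, Slc1a2 and Cd44, and DESeq2 and limma voom called 0. Slc1a2 averaged 150 ± 15.5 CPM in RXRgKO-labelled and 250 ± 138 CPM in WT-labelled T3-treated libraries (SD, n = 4 each), a log2 fold change of -0.74 (SE 0.32, edgeR adjusted p = 0.139) that was -0.27 (SE 0.26) without WT-labelled T3 replicate 1. Cd44 averaged 51.2 ± 7.20 CPM in RXRgKO-labelled and 33.9 ± 13.4 CPM in WT-labelled T3-treated libraries, a log2 fold change of 0.59 (SE 0.24, edgeR adjusted p = 0.111). The T3-treated groups did not overlap for 2 of the 10, Slc1a2 and S100b, both lower under the RXRgKO label, against 18.1% of all genes. Without WT-labelled T3 replicate 1, edgeR called Cd44 (log2 fold change 0.91, adjusted p = 0.00521) and Aldh1l1 (0.45, adjusted p = 0.0240) higher under the RXRgKO label.

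For Gfap the comparison of labels turned with WT-labelled replicate 1. Its log2 fold change, RXRgKO over WT, was -0.77 (SE 0.67, edgeR adjusted p = 0.524) with T3 and -0.42 (SE 0.67, edgeR adjusted p = 0.792) without T3. Without WT-labelled replicate 1 in both treatments the values were 0.09 (SE 0.45) with T3 and 0.63 (SE 0.45) without T3, neither of them called by edgeR. With the sets weighted equally by a set term, the value with T3 was -1.07 (SE 0.17, edgeR adjusted p = 0.000187). Without T3 it was -0.84 (SE 0.17, edgeR adjusted p = 0.00123). In that fit replicate 1, a single library per treatment, weighs as much as the other WT-labelled set. The fit called 47.1% of all genes between the labels with T3 and 45.2% without T3. Its spread comes largely from within sets, so these p-values do not measure the spread between cultures. The direction of the Gfap difference between labels thus differed with and without WT-labelled replicate 1.

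**Figure D4:**
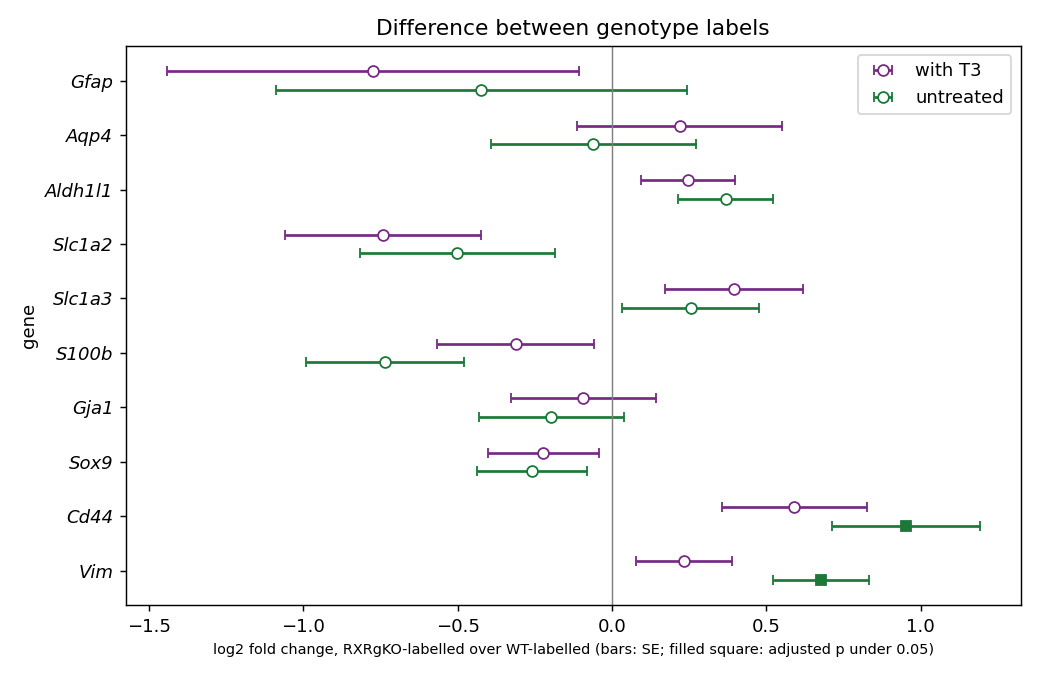
Log2 fold change of the 10 genes, RXRgKO-labelled over WT-labelled, with T3 (purple) and untreated (green); bars are SE and filled squares mark an edgeR adjusted p under 0.05. Untreated Cd44 (0.95) and Vim (0.68) are the filled points, and the Gfap bars are the widest.

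With 1 mean per group, no difference in T3 response between labels was called for the 10 genes. The edgeR test of the difference in T3 response, RXRgKO minus WT, called 0 of the 10, of which 0 had an unadjusted p under 0.05 and 0 were called by DESeq2 or limma voom, and it called 0.0658% of all genes. For Vim the difference was -0.44 (SE 0.22, edgeR adjusted p = 1.0), for Cd44 -0.36 (SE 0.33, edgeR adjusted p = 1.0) and for Gfap -0.35 (SE 0.94, edgeR adjusted p = 1.0). These standard errors leave room for sizeable differences, above all for Gfap. With the set term edgeR called 3 of the 10, Aqp4 (0.30, adjusted p = 0.0358), Cd44 (-0.36, adjusted p = 0.0450) and Vim (-0.42, adjusted p = 0.0236). That fit called 6.68% of all genes, and its spread comes largely from within sets, whose libraries differ little more than sampling noise.

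Among 25 other genes used to mark astrocytes, most did not pass the test for T3 under either label. With T3, edgeR called 1 higher and 1 lower under the RXRgKO label, and 4 higher and 2 lower under the WT label. Over all genes, as above, 2.01% were called higher and 0.794% lower under the RXRgKO label, and 4.96% and 3.48% under the WT label, which is the background of each list that follows. Atp1b2, a subunit of the glial sodium pump, rose under both labels, by 1.38 (SE 0.26, edgeR adjusted p = 0.00736) under the RXRgKO label and by 1.38 (SE 0.26, edgeR adjusted p = 0.00318) under the WT label. Mfge8, a secreted phagocytosis bridge, fell by 0.73 under the RXRgKO label and by 1.26 under the WT label. Itih3, a hyaluronan-binding protein, was at 12.3 to 15.2 CPM with T3 and 8.32 to 12.9 CPM untreated under the RXRgKO label, and at 26.3 to 39.5 CPM with T3 and 9.96 to 11.8 CPM untreated under the WT label. It was the single gene of the 25 with a called difference in T3 response (-1.27, SE 0.22, edgeR adjusted p = 0.0388). DESeq2 called it too (adjusted p = 0.000107), limma voom did not (adjusted p = 0.0619), and leaving out 1 library ended the edgeR call in 13 of 16 cases, with values from -1.39 to -1.17. Acsbg1 (1.17) and Kcnj10 (0.93), a fatty acid enzyme and a potassium channel, were also called higher with T3 under the WT label, and Ndrg2 (-0.50) lower.

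Genes reported to rise in reactive astrocytes of any kind were also measured. Of 10 such pan-reactive genes, edgeR called 4 higher with T3 under the RXRgKO label and 7 under the WT label, and none lower. Serpina3n, a secreted protease inhibitor, was at 641 to 924 CPM with T3 and 69.1 to 153 CPM untreated under the RXRgKO label, and at 513 to 1383 CPM with T3 and 37.9 to 159 CPM untreated under the WT label. Its log2 fold change was 2.82 (SE 0.49, edgeR adjusted p = 0.00355) under the RXRgKO label and 3.40 (SE 0.50, edgeR adjusted p = 0.000386) under the WT label. Timp1, a metalloproteinase inhibitor, rose by 2.12 under the RXRgKO label and 3.44 under the WT label. S1pr3, a sphingosine phosphate receptor, rose by 0.81 under the RXRgKO label and 1.60 under the WT label, and Osmr, the oncostatin M receptor, rose by 1.12 under the RXRgKO label and 1.47 under the WT label. Steap4 (3.37), Hspb1 (2.96) and Cp (1.72) were called by edgeR under the WT label and not under the RXRgKO label, where DESeq2 called Steap4 (2.43, adjusted p = 0.0136). Several of these genes were low in untreated WT-labelled libraries, with Hspb1 at 0.0421 to 0.0871 CPM and Steap4 at 0.169 to 0.296 CPM. Timp1 was at 0.463 to 1.06 CPM and Cp at 1.18 to 2.97 CPM there, so these fold changes start near the floor. Of the 10, DESeq2 called 6 and limma voom 5 under the RXRgKO label. The edgeR test of the difference in T3 response called 0 of the 10, with 3 at an unadjusted p under 0.05 and 0 called by DESeq2 or limma voom. The summed level of the list was 859 to 1113 CPM with T3 and 154 to 286 CPM untreated under the RXRgKO label, and 630 to 1588 CPM with T3 and 81.7 to 200 CPM untreated under the WT label. With T3 most of that sum was Serpina3n alone under both labels, so it mainly restates that gene.

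Of 11 genes of gp130 and STAT3 signalling, Socs3 and Stat3 were called higher with T3 under both labels. Socs3, the feedback inhibitor that STAT3 induces, was at 78.5 to 109 CPM with T3 and 13.1 to 21.5 CPM untreated under the RXRgKO label, and at 69.2 to 90.2 CPM with T3 and 8.42 to 12.5 CPM untreated under the WT label. Its log2 fold change was 2.42 (SE 0.19, edgeR adjusted p = 2.16e-06) under the RXRgKO label and 2.90 (SE 0.20, edgeR adjusted p = 2.74e-07) under the WT label. Stat3 rose by 1.11 (SE 0.23, edgeR adjusted p = 0.0111) under the RXRgKO label and 1.31 (SE 0.23, edgeR adjusted p = 0.00155) under the WT label. The shared receptor subunit gp130, encoded by Il6st, had values of 0.66 (edgeR adjusted p = 0.148) under the RXRgKO label and 0.60 (edgeR adjusted p = 0.122) under the WT label, and the cytokine gene Ctf1 fell by 0.96 under the WT label. Of 13 genes of bone morphogenetic protein signalling, edgeR called 0 with T3 under either label, where unadjusted p was under 0.05 for 0 under the RXRgKO label and 4 under the WT label, DESeq2 called 0 under the RXRgKO label and 1 under the WT label, and limma voom called 0 under both. Between the T3-treated labels edgeR called 2 of the 13 higher under the RXRgKO label, the BMP-induced genes Id1 (1.90) and Id3 (1.69). It called 1 lower, the inhibitor gene Smad7, whose values are given below. Of all genes 8.1% were called higher and 6.8% lower there.

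**Figure D5:**
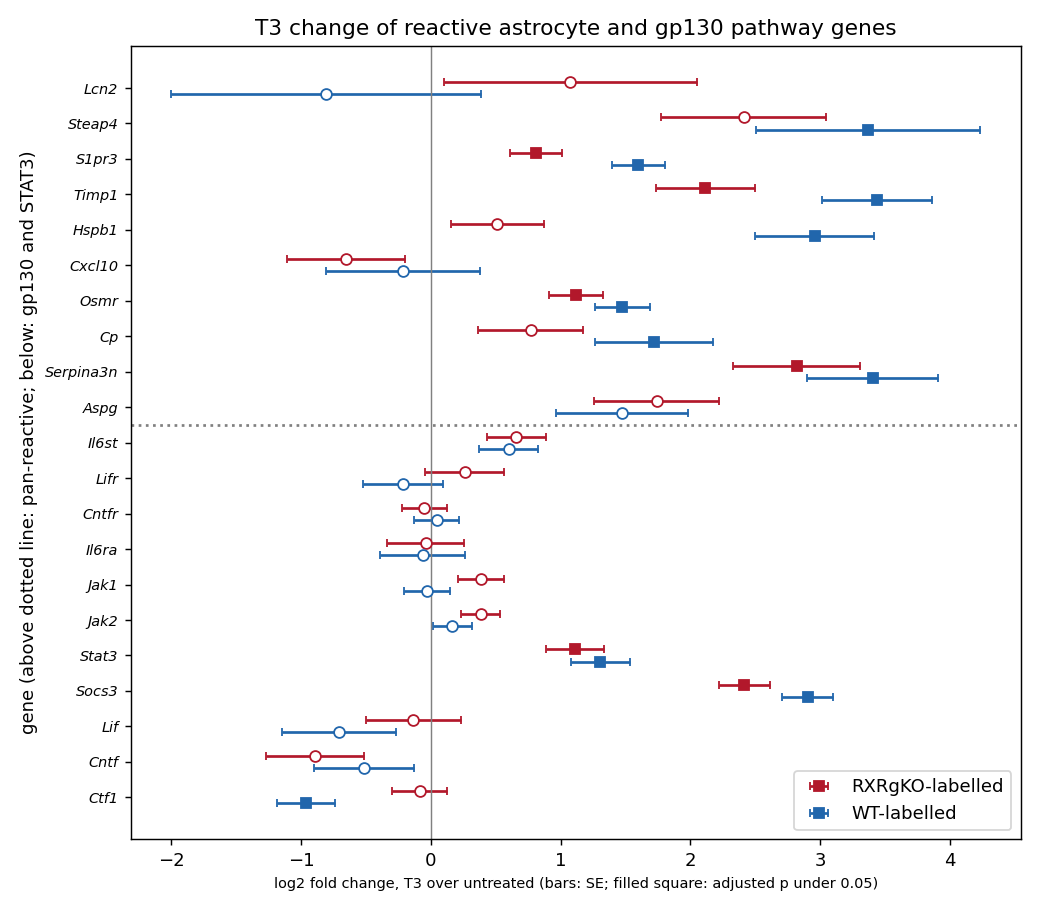
Log2 fold change with T3 (SE bars) of 10 pan-reactive astrocyte genes and 11 gp130 and STAT3 genes; red is RXRgKO-labelled, blue WT-labelled, and filled squares mark an edgeR adjusted p under 0.05. Serpina3n, Timp1, Osmr, S1pr3, Stat3 and Socs3 are filled for both labels, and Lcn2 has the widest bars.

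Lists for 2 subtypes of reactive astrocytes were counted in the same way. Of 11 tested genes reported for the inflammatory A1 state, edgeR called 1 higher with T3 under the RXRgKO label (Serping1, 1.11) and 5 under the WT label, among them Srgn (1.79), H2-D1 (1.17) and Gbp2 (1.77). Of 11 tested genes reported for the A2 state, described after ischaemia, edgeR called 0 under the RXRgKO label. There 4 had an unadjusted p under 0.05, DESeq2 called 4 and limma voom 3. Under the WT label edgeR called 3, Cd109 (1.53), Cd14 (1.78) and Tgm1 (1.79). Cd109 and Cd14 also mark other cells. In untreated WT-labelled libraries Srgn was at 0.285 to 0.549 CPM, Tgm1 at 0.211 to 0.976 CPM and Cd14 at 0.927 to 1.38 CPM, near the floor. Between the untreated labels, 6 pan-reactive, 4 A1 and 3 A2 genes were higher under the RXRgKO label, including S1pr3 (1.13), Osmr (0.70) and Emp1 (1.51), against 6.17% of all genes called higher. Without T3 limma voom called 4 pan-reactive, 3 A1 and 3 A2 genes. Hspb1 and Cxcl10, also called by edgeR, were at no more than 0.0871 and 0.650 CPM in untreated WT-labelled libraries, near the floor. Untreated Osmr split by set, at 21.3 and 30.4 CPM in the first and 16.3 and 17.0 CPM in the second RXRgKO-labelled set. Between the T3-treated labels 3 pan-reactive, 2 A1 and 4 A2 genes were higher, including Cp (1.98), Serping1 (0.94) and Emp1 (1.16), and 1 A1 gene, Fkbp5 (-0.92), was lower, against 8.1% of all genes called higher and 6.8% lower. There limma voom called 1 pan-reactive, 2 A1 and 4 A2 genes. With T3, Cp split by set, at 41.8 and 36.2 CPM in the first and 10.95 and 10.07 CPM in the second RXRgKO-labelled set. WT-labelled libraries held it at 5.28 to 7.84 CPM. Serping1, at 4.02 to 4.84 CPM under the RXRgKO label, did not split by set.

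Genes of other cell types moved with the same comparisons. Mbp, which encodes the myelin basic protein of oligodendrocytes, was at 383 to 891 CPM with T3 and 137 to 248 CPM untreated under the RXRgKO label, and at 7593 to 10342 CPM with T3 and 4603 to 6608 CPM untreated under the WT label. It was lower under the RXRgKO label, by edgeR, with T3 (log2 fold change -3.94, adjusted p = 4.07e-07) and without T3 (-4.74, adjusted p = 1.05e-07). Mesenchymal and mural genes, which share Vim and Cd44 as expressed genes, summed to 311 to 439 CPM with T3 and 251 to 576 CPM untreated under the RXRgKO label, and to 62.4 to 78.7 CPM with T3 and 68.3 to 79.4 CPM untreated under the WT label. Of the 7, 5 were called higher and 0 lower under the RXRgKO label without T3, including Acta2 (4.13) and Col1a1 (3.33). Of all genes 6.17% were called higher and 5.16% lower there. Pdgfrb and Rgs5 were not called, and untreated Rgs5 was at 4.85 to 21.3 CPM under the RXRgKO label and 25.7 to 27.5 CPM under the WT label. Acta2 alone held 86.8 to 370 CPM of the untreated RXRgKO-labelled sum. For the change with T3, edgeR called 0 of the 7 under either label. For that T3 change unadjusted p was under 0.05 for 0 under the RXRgKO label and 2 under the WT label, DESeq2 called 0 under the RXRgKO label and 1 under the WT label, and limma voom called 0 under both. The 7 microglia genes summed to 4.11 to 16.8 CPM with T3 and 10.8 to 18.9 CPM untreated under the RXRgKO label, and to 1.99 to 2.86 CPM with T3 and 2.36 to 3.09 CPM untreated under the WT label. The part of these other cell types in the Vim, Cd44 and reactive gene differences between labels was not tested. The OPC genes Pdgfra and Gpr17 were present in every library, and edgeR, DESeq2 and limma voom called 0 of the 6 OPC genes in each of the 5 comparisons, with 0 to 2 at an unadjusted p under 0.05. Pdgfra differed by set, at 175 and 175 CPM in the first and 591 and 614 CPM in the second RXRgKO-labelled set with T3.

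The genes whose levels ran most like Gfap over all 16 libraries were Pithd1 (Pearson r = 0.96), Fxyd1 (0.96), Usp53 (0.95), Pth1r (0.95) and Hadhb (0.94), and among the other 9 genes of the list r ran from -0.24 for Sox9 to 0.90 for Aqp4, with 0.61 for Vim, 0.60 for Gja1 and 0.57 for Cd44. Over the 14 libraries without WT-labelled replicate 1 the nearest were Mt2 (0.98), Prdx6 (0.98), Ndufs8 (0.97), Ei24 (0.97) and Cela1 (0.97). Aqp4 then had r = 0.84, Vim 0.80, S100b 0.77 and Cd44 0.58, whereas Sox9 had -0.62 and Slc1a2 -0.58. The points share library sets and treatment, so these values describe a pattern over the libraries at hand.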

How the data were processed

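RNA was measured in 16 libraries, 4 per group, from 200 ng of RNA by poly-A selected, dUTP-stranded sequencing, per the labels' protocols. The authors deposited raw counts, 1 per Ensembl gene and library. Tools named in the submitters' processing notes are HTSeq (0.6.1p1), STAR (2.5.3a) and bcl2fastq (2.17.1.14), and the build named there is mm10. How strand was treated in the counting, and which annotation was used, is not given in the sources used here. HTSeq's summary lines, 53.3% to 77.6% of all deposited counts, were left out of library sizes and tests. GENCODE M21 (GRCm38) supplied symbols and positions for 55154 of 55335 identifiers, and RefSeq (GRCm38.p6) supplied promoters.

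R 4.3.3, edgeR 4.0.16, limma 3.58.1 and DESeq2 1.42.0 were used. All libraries entered 1 quasi-likelihood fit with TMM factors, robust dispersions and filterByExpr by group, and p-values were adjusted over 19764 genes. CPM are TMM-normalised, log2 CPM used a prior count of 2, and an SE is the absolute log2 fold change over the square root of F. The scripts were tested on simulated data. The 10 genes and all lists were chosen with earlier results of these data known. The genes named are the 10, Rxrg, for each list up to 4 called members by smallest adjusted p per comparison and, for other cell types, the 2 highest expressed, and the 5 genes most like Gfap. Kcnj10, Ndrg2, Il6st, Lcn2, Xist and Ddx3y were added after their values were seen.

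Libraries of a group shared a set where their chi-square per gene was under 3, using genes whose counts summed to 20 or more and under 500. Replicate numbers entered only the fits with a replicate block, and the main test did not use them. For T3 under the WT label same-number residual correlations were 0.648, 0.247, 0.211 and 0.164. Of these, replicate 1 alone had its best match in its own number, so replicates 2 to 4 are not shown to be paired. For T3 under the RXRgKO label they were 0.543, -0.629, -0.697 and 0.600, and between labels they were mixed. The alternatives comprised 2 other tools (limma voom, DESeq2), other size factors, no filter (49786 genes) or one of 1 CPM in 4 libraries, dispersions without robust fitting, a fit of the compared groups alone, a replicate block, a set term, and leaving out each library or WT replicate 1 in both treatments. Added after seeing the data were fits within sets, with sets summed, lacking an RXRgKO-labelled set, or blocked on replicate using WT-labelled libraries. Libraries without molecular identifiers do not count independent molecules. The summed level and counts of the oligodendrocyte list are not reported here.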

Additional observations from a re-analysis of the deposited data

Results flagged for a closer look

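In 12 of 40 checks of 4 libraries, 1 library stood far from the other 3, and in each of the 12 it was WT-labelled replicate 1. That replicate 1 stands apart was known when the genes were chosen, so this is a description. Over all 19764 tested genes it stood apart by the same ratio for 14.3% with T3 and 16.9% untreated, against 6 of the 10 genes in each. Chance would mark about 1 in 20 such checks, and genes of 1 library are not independent. With T3, replicate 1 was far above the other WT-labelled libraries for Gfap (11207 CPM, against 2455 to 2834), Aqp4 (1263 CPM, against 529 to 603), Aldh1l1 (384 CPM, against 238 to 249), Slc1a2 (458 CPM, against 171 to 195), S100b (207 CPM, against 145 to 151) and Cd44 (54.0 CPM, against 25.9 to 28.6). Untreated, it was far above them for Gfap (4728 CPM, against 819 to 1001), Aqp4 (972 CPM, against 439 to 488), Slc1a2 (361 CPM, against 172 to 181), Slc1a3 (1055 CPM, against 755 to 801), S100b (299 CPM, against 118 to 128) and Gja1 (504 CPM, against 394 to 405). The RXRgKO-labelled groups split into 2 sets of 2, which this ratio cannot mark.

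The T3 response of Itih3 differed between the genotype labels, by -1.27 on the log2 scale for RXRgKO minus WT (edgeR adjusted p = 0.0388), a call that limma voom (adjusted p = 0.0619) and 13 of 16 fits with 1 library left out did not make, with the T3-treated libraries at 12.3 to 15.2 CPM under the RXRgKO label and 26.3 to 39.5 CPM under the WT label.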

How the results depend on the processing

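Of 1450 values of single genes under alternatives, 1297 kept their direction and side of the threshold, 10 lost a call, 55 gained one and 88 changed sign. Of the 10 genes, the number called for T3 under the WT label was 5 with the library set as a term, 5 with a replicate block fitted to WT-labelled libraries and 0 with summed sets. For T3 under the RXRgKO label it was 2 by DESeq2, 1 by limma voom, 1 with only the groups compared, 1 with the replicate block, 2 without WT replicate 1 in both treatments and 6 with the set term. Between labels without T3 it was 1 with no filter, 9 with the set term, 0 without the first RXRgKO set and 0 with summed sets. Between labels with T3 it was 1 with the replicate block, 2 without WT replicate 1, 7 with the set term, 1 without the first and 2 without the second RXRgKO set. For the response difference it was 3 with the set term, where 1321 of 19764 genes were called, against 13 in the main fit. Leaving out 1 library gave 0 to 2 for T3 under the RXRgKO label, 1 to 2 between labels without T3 and 0 to 2 with T3. Calls over all genes moved too. For T3 under the WT label the main fit called 1668 of 19764 and the set term 7599. The block in WT-labelled libraries called 5084 of 17319 there, and summed sets 15 of 24773. For T3 under the RXRgKO label the main fit called 555, DESeq2 1194, limma voom 643, the block 516 and the set term 6634. With only the groups compared the count was 474 of 18876, and without WT replicate 1 in both treatments 1540 of 20573. Between labels without T3 the main fit called 2240 and the set term 8938 of 19764. The count was 1807 of 49786 with no filter, 2237 of 19733 without the first RXRgKO set and 141 of 24773 with summed sets. With T3 the main fit called 2943, the block 2821 and the set term 9303 of 19764. Without WT replicate 1 in both treatments the count was 4214 of 20573. It was 3116 of 19733 without the first and 5955 of 21620 without the second RXRgKO set. The cause of these shifts was not tested.

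Sign changes outside single left-out libraries were as follows. For T3 under the WT label S100b was at 0.069 by limma voom, 0.020 with no filter, 0.038 with the replicate block, 0.061 with that block in WT libraries, 0.27 without WT replicate 1, 0.068 with the set term and 0.0066 without the second RXRgKO set. Sox9 was at 0.016 by DESeq2 and with its size factors, 0.046 with no filter, 0.0072 with the block, 0.014 and 0.030 without the first and second RXRgKO set, and 0.13 with summed sets. For T3 under the RXRgKO label, without its second set, Slc1a2 was at 0.21, Slc1a3 at 0.092 and Sox9 at -0.036; Gja1 was at -0.00031 with the set term and -0.17 without the first set, and Sox9 at -0.0067 with the 1 CPM filter. Between labels without T3, Gfap was at 0.63 without WT replicate 1 and 0.20 without the second RXRgKO set, Aqp4 at 0.00020 with the block, 0.28 without WT replicate 1 and 0.21 without the second set, and Gja1 at 0.0036 without the second set. With T3, Gfap was at 0.089 without WT replicate 1, Aqp4 at -0.0068 with the set term, -0.23 without the first set and -0.13 with summed sets, Slc1a3 at -0.089 and Sox9 at 0.027 without the first set, and Gja1 at 0.041 without WT replicate 1 and 0.22 without the second set. For the response difference, Gfap was at 0.36, Slc1a3 at -0.093 and Gja1 at -0.13 without the first set, Slc1a2 at 0.0039 and Sox9 at -0.066 without the second, Sox9 at -0.081 with summed sets and Aldh1l1 at 0.018 without WT replicate 1.

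Leaving out each library moved T3 under the WT label over -0.11 to 0.66 for Aqp4, -0.31 to 0.53 for Slc1a2, -0.20 to 0.42 for S100b, -0.21 to 0.035 for Gja1 and -0.10 to 0.056 for Sox9. T3 under the RXRgKO label ran over -0.20 to 0.052 for Slc1a2, -0.24 to 0.068 for Slc1a3, -0.16 to 0.18 for Gja1 and -0.099 to 0.14 for Sox9. Between labels without T3, Gfap ran over -0.77 to 0.63 and Aqp4 over -0.21 to 0.28, and with T3 Gfap over -1.01 to 0.089 and Gja1 over -0.30 to 0.042. The response difference ran over -1.42 to 0.55 for Gfap, -0.080 to 0.70 for Aqp4, -0.20 to 0.085 for Aldh1l1, -0.61 to 0.23 for Slc1a2, -0.026 to 0.28 for Slc1a3, -0.029 to 0.58 for S100b, -0.093 to 0.25 for Gja1 and -0.091 to 0.15 for Sox9. The response difference has no value with only the groups compared, since it uses all 4 groups. Cd44, the gene with the lowest level per length, still held at least 11.7 CPM in every library.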

Other observations

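Other lists are given by their counts, beside 6.17% of all genes called higher and 5.16% lower between the untreated labels, and 8.1% and 6.8% between the T3-treated labels. Of 8 astrocyte transcription factors edgeR called 1, Rorb, lower under the RXRgKO label without T3 (-0.47). Of 8 radial glia and stem cell genes, the Notch target Hes1 was higher under the RXRgKO label with T3 (0.89) and without T3 (1.06), and the intermediate filament gene Nes was higher without T3 (0.99). Smad7, an inhibitor of BMP and TGF-beta signalling, was lower under the RXRgKO label with T3 (-2.22) and without T3 (-1.93). Of 7 neuron genes, the GABA-synthesis genes Gad1 and Gad2 fell with T3 under the WT label by 1.42 and 1.57. Between labels 4 of the 7 were higher under the RXRgKO label with T3, led by Gad2 (2.44) and Gad1 (1.76), and 2 without T3, Gad2 (1.37) and Gad1 (1.11). Under the RXRgKO label, all 5 tested ependymal genes were higher with and without T3, led by Pifo (3.19 with T3 and 2.77 without), as were 3 of 5 tested endothelial genes, led by Kdr (1.59 with T3 and 2.42 without) and Cdh5 (3.04 with T3 and 2.42 without). Over all WT-labelled libraries Pifo was at 0.411 to 1.03 CPM and Cdh5 at 0.0412 to 0.218 CPM, near the floor.

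Among other astrocyte genes, the deiodinase gene Dio2, whose product makes T3 from its precursor, was lower under the RXRgKO label with T3 (-1.29) and without T3 (-1.20). The zinc transporter gene Slc39a12 was higher with T3 (1.09) and without T3 (0.97), and the glutamine synthetase gene Glul was lower without T3 (-0.74).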
